A study of Mus musculus with 12 samples.

Results

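The 37 hypoxia and glycolysis genes described here are glycolytic enzymes, pyruvate dehydrogenase kinases and target genes of the hypoxia-inducible factor HIF-1, chosen by gene symbol out of the 31017 genes counted in cultured 4T1 cells, a mouse mammary carcinoma line. All 37 were found in the count tables, and all were among the 13763 genes with enough counts to be tested, although the lactate exporter Slc16a3 was kept through its 3D libraries. There were 6 groups of 2 polyadenylated RNA libraries each, 12 in all. Clone 1 and clone 2 were each a single clone of cells nucleofected with sgRNA against the ETS factor gene Etv4, and the control was a pool of clones nucleofected with control sgRNA. Each of these was grown in 3D, inside collagen I gels that collagenase dissolved at harvest, and in 2D, on culture plastic. The labels name a pair of collagen concentrations without saying which 3D library had which, so 3D libraries may differ in the gel. Differences between single clones and a pool can belong to the clone as much as to the edit, and culture format, collagenase and count table change together, so these cannot be told apart. Whether libraries of a group were separate cultures is not stated in the labels, and the p-values speak only of the spread between libraries, which may be technical.

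HIF-1 is made of Hif1a, a subunit that is hydroxylated and then degraded when oxygen is present, and the stable partner Arnt. The oxygen sensors are the prolyl hydroxylases, among them Egln1 and Egln3, and Egln3 is itself switched on by HIF-1. In low oxygen HIF-1 binds a short core in DNA, ACGTG or GCGTG, and raises glucose transporters, most glycolytic enzymes, Ldha, which turns pyruvate into lactate, and Pdk1, which keeps pyruvate out of the mitochondria. Etv4 belongs to the PEA3 group of ETS transcription factors. Tumour cells often run glycolysis at a high rate in normal oxygen too.

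The libraries held 26.5 to 33.2 M counts in 3D and 12.3 to 18.7 M in 2D. The non-coding gene Gm26917 took 10.9% to 14.9% of all counts in 3D and 1.75% to 2.03% in 2D. Levels are counts per M counts (CPM), with library sizes scaled by edgeR's TMM method (trimmed mean of log ratios). In 3D, Etv4 itself had 69.9 and 69.1 CPM in clone 1, 86.6 and 91.5 in clone 2 and 94.7 and 99.4 in the control. In 2D Etv4 had 49.8 and 49.2 CPM in clone 1, 49.2 and 46.0 in clone 2 and 78.1 and 76.0 in the control. Etv4 RNA was lower in both clones in 2D and in clone 1 in 3D, while clone 2 in 3D did not pass the test (log2 fold change -0.12, adjusted p = 0.116). Counts over the whole gene do not show whether a small edit removed the protein. Of 11 epithelial and mammary markers 10 were tested, and their summed level was 3058 to 3632 CPM in 3D and 3814 to 5127 CPM in 2D. The basal keratin Krt5 was at 0 in every library, but Krt14, another basal keratin, was present in every library. Control libraries held at least 34.8 CPM of Krt14 in 3D and at least 77.6 CPM in 2D. Krt14 was lower in the clones, at 7.59 to 16.0 CPM in 3D and 9.99 to 41.4 CPM in 2D. The summed epithelial level hides differences of single markers in both directions. In 3D Cldn7 had 3.23 and 2.80 CPM in clone 1 and 101 and 110 in the control. Krt19 had 91.0 and 87.3 CPM in clone 1 and 68.1 and 68.2 in the control in 3D. Summed leukocyte markers stayed at 7.59 to 11.1 CPM in 3D and 1.68 to 5.46 CPM in 2D, fibroblast markers at 19.9 to 23.8 CPM in 3D and 4.12 to 7.39 CPM in 2D, and endothelial markers at 3.53 to 5.86 CPM in 3D and 8.53 to 14.9 CPM in 2D. Only 2 of 8 leukocyte, 1 of 7 fibroblast and 1 of 6 endothelial markers were tested. Most of each sum came from a single gene, Cd68, Pdgfra and Egfl7 in that order. Pdgfra had 19.7 to 23.2 CPM in 3D, while no other fibroblast marker passed 0.547 CPM in any library. Of 6 erythroid markers 5 were at 0 in every library, and Alas2, the erythroid enzyme that starts haem synthesis, was at 1.46 to 1.97 CPM in 3D and at 0 in 2D. The part of these markers in the results was not tested. In bulk RNA, fewer cells of a kind and less RNA per cell cannot be told apart.

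The promoters of the genes that the results turn on are shown first. Each window is the first RefSeq window listed for the gene (build GRCm38.p6), 250 bases long, written 5′ to 3′ on the gene's strand and ending just before the annotated start. Capitals mark ACGTG on either strand, so CACGT is the same core read on the other strand and CACGTG holds it on both. Bnip3, Pdk1 and Ldha had the most negative interaction of clone and format among the members called for it, Pgk1 is a classical HIF-1 target of the glycolytic chain, Ddit4 rose most in 3D control cells among the members with a window, Slc16a3 aside, and Car9 moved in opposite directions in the clones.
Bnip3, chr7:138909507-138909756, minus strand: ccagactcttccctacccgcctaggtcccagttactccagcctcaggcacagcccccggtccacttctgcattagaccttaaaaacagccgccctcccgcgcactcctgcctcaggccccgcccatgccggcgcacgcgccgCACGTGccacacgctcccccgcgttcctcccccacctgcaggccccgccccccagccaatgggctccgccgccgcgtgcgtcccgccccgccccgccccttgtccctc
Pdk1, chr2:71872974-71873223, plus strand: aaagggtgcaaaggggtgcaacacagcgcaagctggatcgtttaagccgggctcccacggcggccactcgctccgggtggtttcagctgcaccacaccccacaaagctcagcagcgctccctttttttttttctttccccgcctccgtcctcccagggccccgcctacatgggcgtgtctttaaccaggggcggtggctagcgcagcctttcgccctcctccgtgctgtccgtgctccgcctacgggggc
Ldha, chr7:46845554-46845803, plus strand: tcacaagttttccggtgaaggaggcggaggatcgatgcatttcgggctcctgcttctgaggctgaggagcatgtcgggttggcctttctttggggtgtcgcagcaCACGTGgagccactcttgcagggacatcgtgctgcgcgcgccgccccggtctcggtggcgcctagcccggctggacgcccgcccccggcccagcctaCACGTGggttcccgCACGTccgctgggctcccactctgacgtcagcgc
Pgk1, chrX:106186850-106187099, plus strand: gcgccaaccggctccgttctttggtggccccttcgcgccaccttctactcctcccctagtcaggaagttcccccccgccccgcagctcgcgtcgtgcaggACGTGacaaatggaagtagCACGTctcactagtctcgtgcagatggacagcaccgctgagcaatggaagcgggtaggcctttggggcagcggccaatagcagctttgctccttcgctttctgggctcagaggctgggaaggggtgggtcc
Ddit4, chr10:59951771-59952020, minus strand: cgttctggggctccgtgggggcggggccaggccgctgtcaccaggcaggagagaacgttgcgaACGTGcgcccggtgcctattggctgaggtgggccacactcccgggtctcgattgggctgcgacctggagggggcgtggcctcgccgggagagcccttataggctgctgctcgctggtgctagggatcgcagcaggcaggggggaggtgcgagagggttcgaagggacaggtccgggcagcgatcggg
Car9, chr4:43506776-43507025, plus strand: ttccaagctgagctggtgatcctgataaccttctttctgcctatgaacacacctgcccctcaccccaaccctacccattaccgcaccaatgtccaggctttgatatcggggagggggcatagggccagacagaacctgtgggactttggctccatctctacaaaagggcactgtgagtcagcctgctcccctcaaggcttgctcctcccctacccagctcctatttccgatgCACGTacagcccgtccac
Windows were found for 35 of the 37 members (not for Bnip3l and Ndrg1). A member has up to 4 windows, with more than 1 for 12 members (34.3%), against 20.2% of the tested genes. In the first window listed, ACGTG stood in 15 of these 35 members (42.9%), in 21.8% of the 10142 tested genes with a window, and in 16.6% of all 27025 mouse genes with one. The counts that follow take a match in any window of a gene, and so counted ACGTG stood in 20 of 35 members (57.1%), 25.0% of the tested genes and 18.5% of all genes. With GCGTG counted as well, 31 of 35 members (88.6%) held a core, against 61.0% of the tested genes and 41.5% of all genes. The palindrome CACGTG, which contains ACGTG and is also an E-box read by Myc and Max family proteins, stood in 5 of 35 (14.3%), against 9.76% of tested genes. The ETS letters CCGGAAG stood in 3 of 35 (8.57%), those of Aldoc, Kdm3a and Higd1a, against 15.6% of tested genes. Ldha held the core most densely of those printed, with matches starting 145, 144, 48, 47 and 34 bases before the start, while the Pdk1 window held no ACGTG and 1 GCGTG. Among the members with a window, 7 of 16 with a called negative interaction held ACGTG and 13 of 19 with no called interaction did. These matches are descriptions of the letters and not of binding.

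Set against the control, the hypoxia and glycolysis genes were more often lower in 3D and more often higher in 2D in the mean of both clones (the clone mean). A gene was called when edgeR's quasi-likelihood test, two-sided and with Benjamini-Hochberg adjustment over all 13763 genes, gave an adjusted p under 0.05. The interaction, which is the clone-minus-control log2 difference in 3D minus the same difference in 2D, was negative and called for 17 of 37 members for the mean of both clones and positive and called for none. Over all genes tested, 5.18% were called negative and 2.83% positive in that comparison, beside the members' share of 45.9% on the negative side. The members were chosen with earlier results of these data known. Shares above the background, here and below, are therefore descriptions and not tests of the pathway. The median over the members was -0.33, against -0.03 over all genes. For clone 1 alone 20 members were called negative and 0 positive, beside a background of 3.44% and 3.57%. At an unadjusted p under 0.05, edgeR had 1 positive member for the mean (Hk2) and 1 for clone 1 (Hif1a), and DESeq2's Wald test called 0 positive for the mean and 1 for clone 1. Without control 2D replicate 2 the mean had 2 positive calls, and without clone 1 3D replicate 2 clone 1 had 13 negative and 1 positive. Clone 1 also had 1 positive call without control 2D replicate 1, with DESeq2's size factors, and with a looser or a stricter count filter. The same held with a replicate block, without Gm26917, Gm42418 and mitochondrial genes, and with the median of each chromosome taken off. For clone 2 alone 17 were called negative and 3 positive, beside a background of 14.8% and 7.43%, with 14 and 5 when control 2D replicate 2 was left out. With DESeq2's size factors the split of all called genes was 459 positive and 527 negative, and without Gm26917, Gm42418 and mitochondrial genes it was 529 and 461, against 389 and 713 with TMM. Under those 2 scalings the members still gave 17 negative calls, with 0 and 1 positive.

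In 3D, 17 members were lower and 3 higher in the mean of both clones than in the control, where 17.4% of all genes were called lower and 11.5% higher. Without control 3D replicate 2, 9 members were called in place of 20, with 8 lower (Pfkp, Aldoc, Eno2, Pkm, Vegfa, Car12, Bnip3 and Ak4) and only Hif1a higher. Clone 1 in 3D had 19 lower and 5 higher, beside a background of 23.0% and 22.0%, and its 5 higher calls became 1 without clone 1 3D replicate 1 and 2 without either control 3D library. Clone 2 in 3D had 9 lower and 10 higher, beside a background of 17.4% and 11.9%, and 10 or 11 members were called when clone 2 3D replicate 1 or 2, or control 3D replicate 2, was left out. Without control 3D replicate 1 it had 8 lower and 6 higher. With the median of each chromosome taken off, clone 2 in 3D had 12 lower and 4 higher. Of the 13763 genes tested, 2156 were then lower and 1159 higher.

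In 2D, 20 members were higher and 5 lower in the mean of both clones than in the control, where 17.9% of all genes were called higher and 17.6% lower. The 5 lower calls became 3 without control 2D replicate 1. Clone 1 had 19 higher and 5 lower (19.8% and 20.0% of all genes), and clone 2 also had 19 higher and 5 lower (18.9% and 15.0% of all genes). Both clones were set against the same control libraries, so their results are not independent of each other. The median of the members was -0.13 in 3D and 0.19 in 2D for the mean of both clones, beside all-gene medians of -0.01 and 0.

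**Figure D1:**
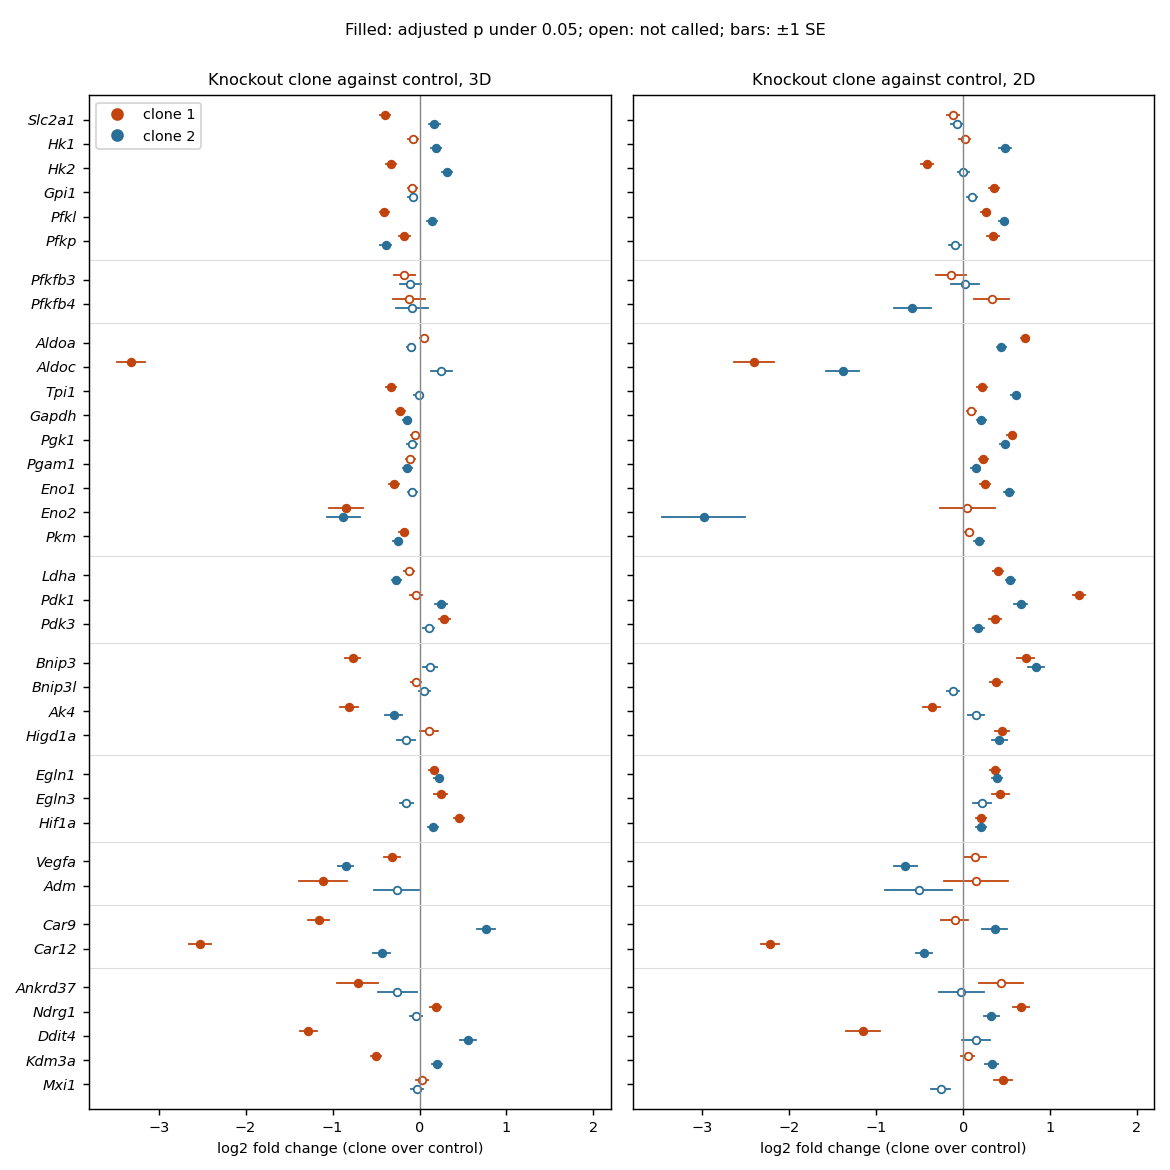
Log2 fold change of each member in knockout clone 1 and clone 2 over the control, in 3D (left) and 2D (right), with bars of 1 SE from the edgeR fit. Filled points had an adjusted p under 0.05. In 3D most points lie at or left of 0 and in 2D most lie right of it, with Aldoc, Car12, Eno2 and Ddit4 as wide exceptions. Slc16a3 is left out because it had 0 or 1 count in each 2D group.

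Almost every member was called between 3D and 2D, and most of all tested genes were too. Slc16a3 is left out of these counts, because it passed the count filter through its 3D libraries and so had to be higher there. Of the other 36 members, 15 were higher and 18 lower in 3D than in 2D in clone 1, beside a background of 39.8% and 35.3% of all genes. In clone 2 the counts were 17 higher and 14 lower (42.5% and 37.0% of all genes), and in the control they were 21 higher and 12 lower (41.7% and 35.6% of all genes). The members' shares in the control, 58.3% higher and 33.3% lower, were above the background for higher calls and close to it for lower calls. With Slc16a3 included, median exon length was 4495 bases for members higher in 3D control cells and 3175 bases for those lower, and 4634 and 3883 bases for all genes so called. The part of length in these calls was not tested.

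**Figure D2:**
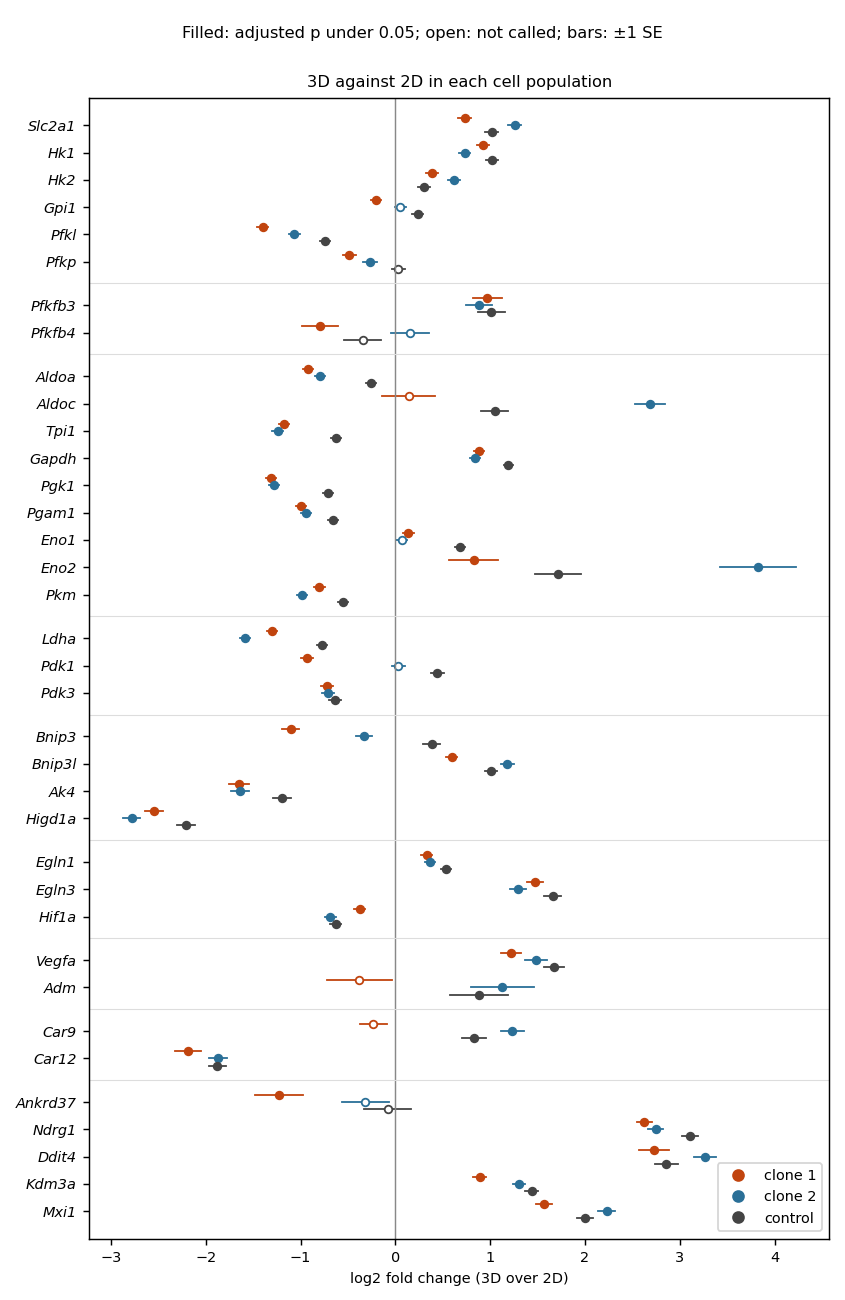
Log2 fold change of each member in 3D over 2D, in clone 1, clone 2 and the control, with bars of 1 SE from the edgeR fit. Filled points had an adjusted p under 0.05. Ndrg1, Ddit4, Mxi1, Egln3 and Vegfa lie far right in all cell populations and Higd1a, Car12 and Ak4 far left, while the glycolytic genes from Aldoa to Ldha mostly lie left of 0 and further left in the clones. Slc16a3 is left out because it had 0 or 1 count in each 2D group.

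The strongest turn was at Bnip3 (chr7:138890836-138909519, minus strand), a mitochondrial outer membrane protein that marks mitochondria for autophagy and is a known HIF-1 target. In 3D Bnip3 had 19.6 and 18.1 CPM in clone 1, 34.0 and 35.9 in clone 2 and 32.1 and 32.0 in the control. In 2D Bnip3 had 42.0 and 38.9 CPM in clone 1, 41.4 and 46.7 in clone 2 and 25.0 and 24.2 in the control. Both clones stood above the control without overlap in 2D, and in 3D clone 1 stood below it while clone 2 stood slightly above. The log2 fold change in 3D was -0.77 ± 0.09 for clone 1 (SE, adjusted p = 6.15e-08) and 0.12 ± 0.08 for clone 2 (adjusted p = 0.293). In 2D it was 0.72 ± 0.10 for clone 1 and 0.83 ± 0.09 for clone 2 (adjusted p = 1.15e-06 and 1.66e-07). The interaction of the mean was -1.10 ± 0.11 (adjusted p = 2.53e-07), and it was -1.49 for clone 1 and -0.71 for clone 2. Reads of Bnip3 are uncertain, because 94.2% of its transcript has a near-identical copy elsewhere and 22.3% of its exons are overlapped by a gene on the other strand.

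Pdk1 (chr2:71873224-71903858, plus strand), the kinase that shuts the pyruvate dehydrogenase complex, behaved alike and has no near-identical copy or overlapping gene. In 3D Pdk1 had 68.2 and 68.5 CPM in clone 1, 80.8 and 86.1 in clone 2 and 67.9 and 72.8 in the control. In 2D Pdk1 had 135 and 126 CPM in clone 1, 77.6 and 86.3 in clone 2 and 49.5 and 53.9 in the control. The 2D groups were fully separate in the order clone 1, clone 2, control, and in 3D clone 1 fell within the range of the control. The 2D difference was 2.52-fold for clone 1 and 1.58-fold for clone 2. In 3D the log2 fold change was -0.04 ± 0.07 for clone 1 (adjusted p = 0.647) and 0.25 ± 0.06 for clone 2 (adjusted p = 0.00464). The interaction of the mean was -0.89 ± 0.09 (adjusted p = 1.01e-07). Pdk3, a related kinase, was higher in the clone mean in 3D (0.19 ± 0.06) and in 2D (0.27 ± 0.06), with an interaction of -0.08 ± 0.08 that did not pass the test (adjusted p = 0.628).

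Ldha (chr7:46841475-46855627, plus strand), which makes lactate from pyruvate, followed the same pattern at high level. In 3D Ldha had 554 and 525 CPM in clone 1, 485 and 489 in clone 2 and 569 and 604 in the control. In 2D Ldha had 1382 and 1272 CPM in clone 1, 1411 and 1514 in clone 2 and 1017 and 991 in the control. Both clones were below the control in 3D and above it in 2D, without overlap in either format. For the clone mean, Ldha stood at a log2 fold change of -0.19 ± 0.05 in 3D (adjusted p = 0.00219) and at 0.47 ± 0.05 in 2D (adjusted p = 2.29e-08), and the interaction was -0.67 ± 0.07 (adjusted p = 2.19e-07). Without control 3D replicate 2 the 3D value was -0.16 (adjusted p = 0.0988). Copies near-identical to Ldha cover 55.0% of its transcript. Slc16a3, the monocarboxylate transporter that exports lactate, was barely present, with 68 counts over both libraries in clone 1, 64 in clone 2 and 67 in the control in 3D, and 0, 1 and 0 counts in the same groups in 2D. Against a floor of 3 counts over the group, its level was at least 10.6-fold higher in 3D than in 2D in clone 1 and at least 11.8-fold higher in the control. In clone 2 the ratio was 37.1, with a 95% interval of 6.43 to 1489 that covers counting error only.

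**Figure D3:**
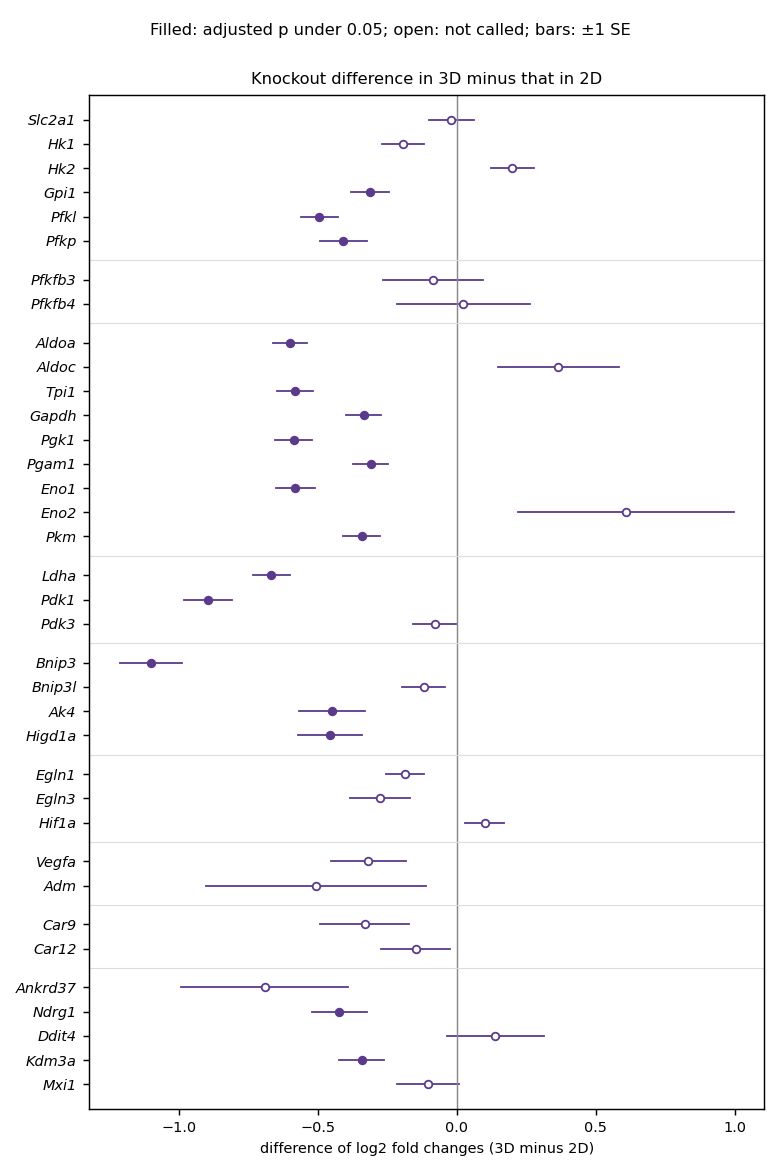
Interaction for each member, the log2 difference of the mean of both clones from the control in 3D minus that in 2D, with bars of 1 SE from the edgeR fit. Filled points had an adjusted p under 0.05. All 17 filled points lie left of 0, from Bnip3 at -1.10 to Pgam1 at -0.31. Slc16a3 is left out because it had 0 or 1 count in each 2D group.

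Of the 9 genes from aldolase to pyruvate, 7 had a called negative interaction, and these are the 7 that are abundant in these cells. Aldoa (chr7:126795234-126800751, minus strand), the aldolase of most tissues, had 703 and 654 CPM in clone 1, 604 and 620.5 in clone 2 and 648 and 662 in the control in 3D. In 2D Aldoa had 1289 and 1278 CPM in clone 1, 1082 and 1043 in clone 2 and 788 and 780.0 in the control. The 2D groups did not overlap, while in 3D clone 1 overlapped the control and clone 2 lay just under it. Its interaction was -0.60 ± 0.06 (adjusted p = 2.93e-07), made of -0.02 ± 0.04 in 3D (adjusted p = 0.736) and of 0.57 ± 0.04 in 2D (adjusted p = 1.86e-10).

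Tpi1 (chr6:124810586-124814296, minus strand), which interconverts the triose phosphates, had 302 and 293 CPM in clone 1, 366 and 377 in clone 2 and 359 and 388 in the control in 3D. In 2D Tpi1 had 697 and 645 CPM in clone 1, 855 and 903 in clone 2 and 588 and 567 in the control. Both clones exceeded the control in 2D, and in 3D clone 1 lay below it while clone 2 overlapped it. The interaction was -0.58 ± 0.07 (adjusted p = 1.48e-06). Pgk1 (chrX:106187100-106203699, plus strand), the first ATP-making enzyme of the chain, had 342 and 344 CPM in clone 1, 325 and 342 in clone 2 and 338 and 371 in the control in 3D. In 2D Pgk1 had 881 and 828 CPM in clone 1, 797 and 822 in clone 2 and 597 and 565 in the control. The clones were far above the control in 2D and overlapped it in 3D, with an interaction of -0.59 ± 0.07 (adjusted p = 1.42e-06).

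The other called members of the chain were Eno1, an enolase, with an interaction of -0.58, Pkm, which makes pyruvate, with -0.34, Gapdh, the glyceraldehyde phosphate dehydrogenase, with -0.33, and Pgam1, a phosphoglycerate mutase, with -0.31. Gapdh ranged from 1080.3 to 1191 CPM in the clones and from 1279.6 to 1341 CPM in the control in 3D, and from 605 to 670.4 CPM in the clones and from 564 to 583 CPM in the control in 2D. Summed over the 9 genes of the chain and Ldha, the level was 6409.6 to 6757 CPM in the clones and 7361 to 7619 CPM in the control in 3D. In 2D the same sum was 9849 to 10888 CPM in the clones and 8224 to 8655 CPM in the control. The clones lay wholly below the control in 3D and wholly above it in 2D.

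Near-identical copies touch much of this chain, with at least 95% identity over at least 200 bases for 12 of the 37 members. Of these, 11 carry a called negative interaction of the mean, beside 6 of the 25 members with no such copy, a split made after the values were seen. The copies cover 85.6% of the transcript for Eno1, 68.8% for Pgk1, 65.5% for Pkm, 43.1% for Pgam1, 30.3% for Gapdh, with copies in 90 genes, and 19.3% for Tpi1. Counts of the 7 copy genes that are in the tables were added to their members as an alternative chosen after seeing the data, and 17 interactions were again called. What the authors' counting did with reads that fit several places is not given in the sources used here, and its part in the result was not tested. The 6 called members free of copies are Pfkl, Pfkp, Aldoa, Pdk1, Ndrg1 and Kdm3a.

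The minor isoenzymes of the chain, Aldoc and Eno2, had no called interaction of the mean (0.37 ± 0.22 and 0.61 ± 0.39, adjusted p = 0.338 and 0.373). Aldoc (chr11:78322968-78327781, plus strand), an aldolase typical of brain, had 1.86 and 1.93 CPM in clone 1, 21.2 and 23.9 in clone 2 and 18.8 and 19.1 in the control in 3D. In 2D Aldoc had 1.33 and 2.17 CPM in clone 1, 3.63 and 3.34 in clone 2 and 10.1 and 8.30 in the control. Clone 1 was far below the control in 3D and clone 2 slightly above it, and both were below it in 2D. The log2 fold change in 3D was -3.32 ± 0.16 for clone 1 (adjusted p = 8.37e-15) and 0.25 ± 0.12 for clone 2 (adjusted p = 0.119). In 2D it was -2.41 ± 0.23 for clone 1 and -1.39 ± 0.19 for clone 2 (adjusted p = 5.49e-09 and 3.17e-06). Aldoc lies on chromosome 11, whose tested genes in clone 1 had medians of -0.43 in 3D and of -0.38 in 2D, and with that median taken off the values of clone 1 were -2.88 and -2.05.

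Eno2, the neuronal enolase, had 3.49 and 3.80 CPM in clone 1, 3.43 and 3.72 in clone 2 and 6.31 and 6.81 in the control in 3D. In 2D Eno2 had 1.75 and 2.41 CPM in clone 1, 0.163 and 0.356 in clone 2 and 2.24 and 1.75 in the control. Both clones were below the control in 3D, and clone 2 was nearly silent in 2D. For the clone mean, Eno2 stood at a log2 fold change of -0.86 ± 0.16 in 3D (adjusted p = 2.16e-04) and at -1.47 ± 0.35 in 2D (adjusted p = 0.00149), with clone 2 at -2.98 and clone 1 at 0.05 in 2D. Per kilobase of exon, the ratio of Aldoa to Aldoc was 424 and 379 in clone 1, 31.9 and 29.1 in clone 2 and 38.7 and 38.8 in the control in 3D. In 2D that ratio was 1088 and 660 in clone 1, 334 and 350 in clone 2 and 87.8 and 105 in the control. Aldoa thus outweighed Aldoc in every library, and most in clone 1.

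At the top of the pathway, Slc2a1, Hk1 and Hk2 had no called interaction of the mean, at -0.02, -0.19 and 0.20. Slc2a1 (chr4:119108711-119137983, plus strand), the basal glucose transporter, had 99.3 and 103 CPM in clone 1, 152 and 149 in clone 2 and 131 and 136 in the control in 3D. In 2D Slc2a1 had 61.7 and 60.3 CPM in clone 1, 66.7 and 58.6 in clone 2 and 62.4 and 69.7 in the control. The groups lay close together in 2D and were separate in 3D, with clone 1 lowest and clone 2 highest. Its 3D log2 fold change was -0.40 ± 0.06 in clone 1 (adjusted p = 5.99e-06) and 0.17 ± 0.06 in clone 2 (adjusted p = 0.0323), and the clone 2 call was lost when any 3D library but clone 1 replicate 2 was left out and with chromosomes centred.

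Hk2 (chr6:82725025-82774454, minus strand), the inducible hexokinase, had 75.9 and 76.6 CPM in clone 1, 121 and 118 in clone 2 and 96.7 and 95.2 in the control in 3D. In 2D Hk2 had 57.0 and 59.5 CPM in clone 1, 80.6 and 74.8 in clone 2 and 81.2 and 74.3 in the control. Clone 1 was lowest in both formats and clone 2 was above the control only in 3D. The clones therefore cancelled in the 3D mean, at -0.01 ± 0.05 (adjusted p = 0.937). Hk1, the constitutive hexokinase, was higher in the clone mean in 2D (0.25 ± 0.06, adjusted p = 0.00114), with clone 2 carrying it at 0.48 and clone 1 at 0.02.

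Below the hexokinases, 3 enzymes had called negative interactions. Gpi1, the glucose phosphate isomerase, was at -0.31, Pfkl, the liver-type phosphofructokinase, at -0.49, and Pfkp, the platelet type, at -0.41. Pfkl had 183 and 185 CPM in clone 1, 262 and 275 in clone 2 and 236 and 251 in the control in 3D, and 502 and 469 in clone 1, 569 and 555 in clone 2 and 421 and 391 in the control in 2D. Pfkfb3 and Pfkfb4, which set fructose 2,6-bisphosphate, the activator of phosphofructokinase, had no called interaction. Pfkfb4 stayed between 5.69 and 7.20 CPM in the clones and between 6.78 and 6.91 CPM in the control in 3D. In 2D Pfkfb4 had 10.3 and 11.7 CPM in clone 1, 6.73 and 4.69 in clone 2 and 10.7 and 6.75 in the control. Against the control, clone 2 in 2D was called (-0.58 ± 0.21, adjusted p = 0.036) and neither clone in 3D nor clone 1 in 2D was, and the highest clone 2 library, 6.73 CPM, lay beside the lowest control library, 6.75 CPM. Pfkfb4 was also lower in clone 2 than in clone 1 in 2D (-0.91 ± 0.21) and lower in 3D than in 2D in clone 1 (-0.80 ± 0.19).

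**Figure D4:**
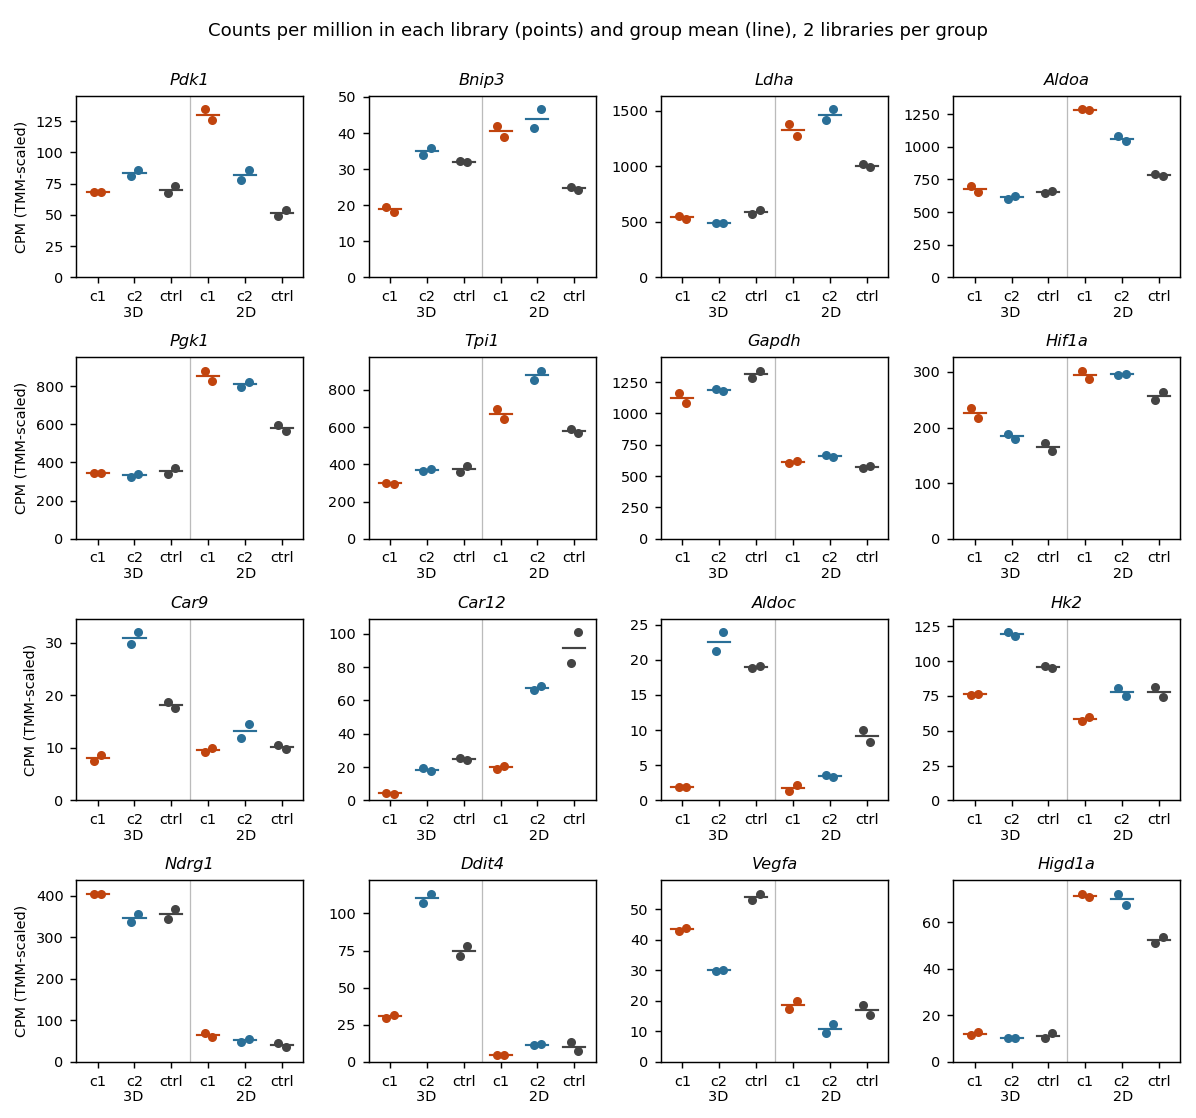
TMM-scaled CPM of 16 members in each of the 12 libraries (points) with the mean of each group (line), for clone 1 (c1), clone 2 (c2) and the control (ctrl) in 3D (left of each panel) and 2D (right). Each axis starts at 0. Pdk1, Bnip3, Ldha, Aldoa, Pgk1 and Tpi1 show clones above the control in 2D and at or below it in 3D (clone 2 slightly above for Pdk1 and Bnip3), while Car9, Hk2 and Ddit4 show the clones on opposite sides of the control in 3D.

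Among mitochondrial proteins, Higd1a, a hypoxia-induced protein of the inner mitochondrial membrane, and Ak4, a mitochondrial adenylate kinase, also had called negative interactions, and both were strongly lower in 3D. Higd1a (chr9:121848563-121858362, minus strand) had 11.7 and 12.7 CPM in clone 1, 10.1 and 10.1 in clone 2 and 10.3 and 12.3 in the control in 3D. In 2D Higd1a had 71.8 and 70.9 CPM in clone 1, 72.1 and 67.3 in clone 2 and 51.0 and 53.5 in the control. All 3D libraries lay below all 2D libraries, and in 3D clone 1 overlapped the control. The 3D over 2D log2 fold change was -2.55 ± 0.09 in clone 1, -2.78 ± 0.09 in clone 2 and -2.21 ± 0.09 in the control (adjusted p = 4.74e-19, 6.98e-20 and 1.81e-17). The interaction was -0.46 ± 0.12 (adjusted p = 0.0149), and without control 3D replicate 2 its adjusted p was 0.21. A gene on the other strand overlaps 22.5% of its exons.

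Ak4 had 10.1 and 10.6 CPM in clone 1, 14.4 and 15.3 in clone 2 and 17.1 and 19.4 in the control in 3D. In 2D Ak4 had 33.8 and 31.2 CPM in clone 1, 44.6 and 48.0 in clone 2 and 40.8 and 42.8 in the control. It was below the control in both clones in 3D, by -0.82 and -0.30 on the log2 scale, and in 2D clone 1 was below and clone 2 above. Bnip3l, the relative of Bnip3 that clears mitochondria in maturing red cells, rose in 3D over 2D in clone 1 (0.59), clone 2 (1.18) and the control (1.01). Per kilobase of exon, the ratio of Bnip3l to Bnip3 was 4.38 and 4.59 in clone 1, 2.63 and 2.54 in clone 2 and 2.65 and 2.75 in the control in 3D. In 2D that ratio was 1.31 and 1.47 in clone 1, 1.00 and 0.811 in clone 2 and 1.61 and 1.90 in the control.

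Hif1a and Egln1 RNA was higher in the clone mean in both formats. Hif1a (chr12:73901375-73947530, plus strand) had 236 and 218 CPM in clone 1, 188 and 180.2 in clone 2 and 172 and 159 in the control in 3D. In 2D Hif1a had 302 and 287 CPM in clone 1, 295 and 297 in clone 2 and 249 and 264 in the control. Both clones lay above the control in both formats without overlap, and 3D libraries lay below 2D libraries throughout. For the clone mean, Hif1a stood at a log2 fold change of 0.30 ± 0.05 in 3D (adjusted p = 3.03e-05) and at 0.20 ± 0.05 in 2D (adjusted p = 0.00201), with no called interaction (0.10 ± 0.07, adjusted p = 0.424). The tested genes of chromosome 12, where Hif1a lies, had medians of 0.23 in clone 1 and 0.11 in clone 2 in 3D and of 0.18 and 0.17 in 2D, and with chromosomes centred the 3D value of Hif1a was 0.17 (adjusted p = 0.0143) and the 2D value 0.03 (adjusted p = 0.667). HIF-1 activity is set at the protein level, which was not measured.

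Egln1, the main prolyl hydroxylase, was higher in the clone mean in 3D (0.19 ± 0.05) and in 2D (0.38 ± 0.05). Egln3, the inducible one, ranged from 50.8 to 68.7 CPM in the clones and from 56.4 to 57.0 CPM in the control in 3D, and from 20.7 to 24.9 CPM in the clones and from 16.3 to 19.6 CPM in the control in 2D. Its 3D over 2D log2 fold change was 1.47 ± 0.08 in clone 1, 1.29 ± 0.09 in clone 2 and 1.66 ± 0.09 in the control. Per kilobase, the ratio of Egln1 to Egln3 was 1.41 to 1.97 in the clones and 1.50 and 1.52 in the control in 3D. The same ratio was 3.13 to 3.77 in the clones and 3.03 and 3.63 in the control in 2D.

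Of the secreted factors, Vegfa (chr17:46016993-46032369, minus strand), the main angiogenic growth factor, had 43.1 and 43.9 CPM in clone 1, 29.9 and 30.2 in clone 2 and 53.2 and 55.2 in the control in 3D. In 2D Vegfa had 17.4 and 20.1 CPM in clone 1, 9.38 and 12.4 in clone 2 and 18.7 and 15.4 in the control. Vegfa was higher in 3D than in 2D in each cell population, and within 3D both clones were below the control without overlap. The 3D log2 fold change was -0.32 ± 0.09 in clone 1 (adjusted p = 0.00445) and -0.85 ± 0.09 in clone 2 (adjusted p = 4.3e-08). In 2D only clone 2 was called (-0.67 ± 0.13, adjusted p = 2.91e-04), and the interaction of the mean did not pass (-0.32 ± 0.13, adjusted p = 0.15). Adm, the vasodilator adrenomedullin, had 1.71 and 1.84 CPM in clone 1, 3.67 and 2.74 in clone 2 and 3.83 and 3.87 in the control in 3D, and 2.52 and 2.09, 1.84 and 0.996 and 1.26 and 2.90 CPM in the same groups in 2D. Its 2D libraries overlapped widely, and the 3D call in the mean (-0.69 ± 0.23, adjusted p = 0.0233) was lost in 6 alternatives, among them DESeq2's Wald test.

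The carbonic anhydrases of the cell surface, which help tumour cells export acid, separated the clones. Car9 (chr4:43506966-43513729, plus strand), a textbook HIF-1 target, had 7.52 and 8.67 CPM in clone 1, 29.8 and 32.0 in clone 2 and 18.6 and 17.7 in the control in 3D. In 2D Car9 had 9.16 and 9.96 CPM in clone 1, 11.9 and 14.6 in clone 2 and 10.6 and 9.78 in the control. Clone 1 lay below the control and clone 2 above it in 3D, without overlap, and the 2D libraries of clone 1 overlapped those of the control. The 3D log2 fold change was -1.16 ± 0.12 in clone 1 (adjusted p = 1.34e-08) and 0.77 ± 0.11 in clone 2 (adjusted p = 2.98e-06). Clone 2 over clone 1 was 1.93 ± 0.12 in 3D (adjusted p = 2e-13), with 0.46 ± 0.15 in 2D (adjusted p = 0.0121). Car9 was higher in 3D than in 2D in clone 2 (1.23) and the control (0.83), and clone 1 did not pass (-0.23 ± 0.14, adjusted p = 0.147).

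Car12 (chr9:66713686-66766845, plus strand), a related enzyme, had 4.67 and 4.03 CPM in clone 1, 19.3 and 17.5 in clone 2 and 25.5 and 24.5 in the control in 3D. In 2D Car12 had 18.7 and 20.9 CPM in clone 1, 66.1 and 68.5 in clone 2 and 82.6 and 101 in the control. Both clones lay below the control in both formats, clone 1 by far the most, and 3D lay below 2D in each population. The log2 fold change was -2.53 ± 0.12 in clone 1 and -0.44 ± 0.10 in clone 2 in 3D (adjusted p = 5.94e-15 and 0.00124), and -2.22 ± 0.10 and -0.45 ± 0.09 in 2D (adjusted p = 5.03e-15 and 2.79e-04). Per kilobase, the ratio of Car12 to Car9 in 3D was 0.188 and 0.141 in clone 1, 0.197 and 0.166 in clone 2 and 0.414 and 0.420 in the control. In 2D that ratio was 0.618 and 0.636 in clone 1, 1.69 and 1.43 in clone 2 and 2.36 and 3.13 in the control. By this measure Car9 was the more abundant of the pair in 3D in each population. Car12 was the more abundant in 2D in clone 2 and the control but not in clone 1. The measure divides by all annotated exon bases, 7597 for Car12 and 2304 for Car9, so the order rests on these lengths. In undivided CPM, Car12 exceeded Car9 in each population in 2D and in the control in 3D. Group means were 25.0 and 18.1 CPM in the 3D control and 19.8 and 9.56 CPM in clone 1 in 2D.

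Among the stress-related targets, Ndrg1, Ddit4 and Mxi1 rose widely in 3D, and Kdm3a rose less but in each population. Ankrd37 was lower in 3D in clone 1 (-1.23 ± 0.25) and not called in clone 2 and the control. Ndrg1 (chr15:66929318-66969640, minus strand), a stress-induced protein of differentiating cells, had 404 and 405 CPM in clone 1, 337 and 356 in clone 2 and 344 and 367 in the control in 3D. In 2D Ndrg1 had 70.4 and 60.3 CPM in clone 1, 48.4 and 55.5 in clone 2 and 45.9 and 36.8 in the control. The formats did not overlap, and the control rose 8.62-fold. The 3D over 2D log2 fold change was 2.63 ± 0.08 in clone 1, 2.74 ± 0.08 in clone 2 and 3.11 ± 0.08 in the control (adjusted p = 8.58e-21, 2.87e-21 and 7.54e-22). Its interaction was -0.42 ± 0.10 (adjusted p = 0.00773), and this call was lost without control 2D replicate 2 or control 3D replicate 2.

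Ddit4 (chr10:59949669-59951834, minus strand), which restrains the growth regulator mTORC1, had 29.8 and 31.6 CPM in clone 1, 107 and 113 in clone 2 and 71.6 and 78.0 in the control in 3D. In 2D Ddit4 had 4.40 and 4.90 CPM in clone 1, 11.1 and 11.9 in clone 2 and 13.1 and 7.55 in the control. It rose in 3D in each population, by 2.73 ± 0.16 in clone 1, 3.26 ± 0.12 in clone 2 and 2.86 ± 0.12 in the control on the log2 scale. In both formats clone 1 was below the control without overlap, while clone 2 was above it in 3D and within it in 2D. The 3D log2 fold change was -1.28 ± 0.10 in clone 1 and 0.56 ± 0.09 in clone 2 (adjusted p = 4.85e-11 and 2.65e-05).

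Mxi1, a Max partner that opposes Myc, had 65.8 and 61.3 CPM in clone 1, 60.6 and 61.6 in clone 2 and 62.1 and 62.6 in the control in 3D. In 2D Mxi1 had 20.3 and 22.7 CPM in clone 1, 13.5 and 12.4 in clone 2 and 15.5 and 15.6 in the control. The 3D groups lay close together, and in 2D clone 1 was highest and clone 2 lowest. Its 3D over 2D log2 fold change was 1.57 ± 0.08 in clone 1, 2.23 ± 0.09 in clone 2 and 2.00 ± 0.09 in the control. Kdm3a, a histone H3 lysine 9 demethylase, had a called interaction of -0.34 ± 0.08 (adjusted p = 0.00885). Its group mean was 89.1 CPM in clone 1, 144 in clone 2 and 126 in the control in 3D. The same groups had 48.2, 58.5 and 46.4 CPM in 2D. Ankrd37, an ankyrin repeat protein, ranged from 1.61 to 2.55 CPM in the clones and from 2.72 to 3.25 CPM in the control in 3D, and its mean interaction of -0.69 ± 0.30 did not pass (adjusted p = 0.165).

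The lower part of glycolysis split in direction with format. In 3D control cells against 2D control cells, Ldha (-0.78), Pgk1 (-0.71), Pgam1 (-0.66), Tpi1 (-0.63), Pkm (-0.55) and Aldoa (-0.26) were lower on the log2 scale. Gapdh (1.19), Eno1 (0.68), Aldoc (1.05) and Eno2 (1.72) were higher. The fall of Ldha was -1.30 ± 0.05 in clone 1, -1.59 ± 0.06 in clone 2 and -0.78 ± 0.05 in the control, and that of Pgk1 was -1.32, -1.28 and -0.71 in the same order. Eno1 hardly rose in the clones, at 0.13 ± 0.06 in clone 1 (adjusted p = 0.0342) and 0.07 ± 0.06 in clone 2 (adjusted p = 0.271). Per kilobase of exon, the control levels in 3D were 512 CPM for Pkm, 317 for Gapdh, 275 for Eno1, 225 for Aldoa, 177 for Ldha and 158 for Pgk1. In 2D they were 752 CPM for Pkm, 139 for Gapdh, 171 for Eno1, 269 for Aldoa, 303 for Ldha and 259 for Pgk1. By this measure Gapdh was next to Pkm in 3D and the lowest of these 6 in 2D. In undivided CPM, Eno1 (1478) stood above Gapdh (1310) in the 3D control. Gapdh (573) was again lowest in the 2D control, close to Pgk1 (581). Gapdh also has near-identical copies in 90 genes, and their part in this order was not tested.

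Set against each other, the clones differed for most members, and differences were common over all genes too. In 3D clone 2 was higher than clone 1 for 15 members (40.5%) and lower for 9 (24.3%), beside a background of 26.4% and 28.5%. In 2D clone 2 was higher for 12 (32.4%) and lower for 11 (29.7%), beside 23.2% and 18.4%. With the median of each chromosome taken off, clone 2 was higher for 6 and lower for 12 in 2D. Of the 13763 genes tested, 2411 were then higher and 2260 lower. With the stricter filter clone 2 was higher for 16 members and lower for 5 in 3D, beside 3250 and 3190 of all genes kept. The 9 lower calls in 3D became 3 and 5 without clone 2 3D replicate 1 and 2, and 4 without clone 1 3D replicate 1. In 3D the largest differences were at Aldoc (3.57 ± 0.16, an 11.8-fold difference), Car12 (2.09 ± 0.13), Car9 (1.93 ± 0.12) and Ddit4 (1.84 ± 0.10), each higher in clone 2. In 2D they were at Eno2 (-3.03 ± 0.48), lower in clone 2, and at Car12 (1.77 ± 0.10) and Ddit4 (1.30 ± 0.19), higher in clone 2.

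Other genes of the same pathways were counted from 3 further lists. Their counts stand beside all-gene shares of 2.83% positive and 5.18% negative for the interaction of the mean, 11.5% higher and 17.4% lower for the clone mean in 3D, 17.9% higher and 17.6% lower in 2D, and 41.7% higher and 35.6% lower for 3D over 2D in the control. Of 17 tested glycolysis and pyruvate genes outside the members, 0 had a called positive and 3 a called negative interaction of the mean. These were Pdk2, at -3.65 from very low 2D levels of 0.45 CPM in clone 1, 0.49 in clone 2 and 0.03 in the control, and Pdha1 (-0.29 ± 0.07) and Pdhb (-0.24 ± 0.07), the E1 subunits of pyruvate dehydrogenase. In 3D, 1 was higher (Mpc1, a mitochondrial pyruvate carrier, 0.33 ± 0.12) and 2 were lower (Pfkm, the muscle phosphofructokinase, -0.56 ± 0.11, and Tigar, which lowers fructose 2,6-bisphosphate, -0.31 ± 0.12) in the clone mean. Mpc1 was at 16.7 CPM in clone 1, 8.48 in clone 2 and 9.49 in the control in 3D, so only clone 1 lay above the control. In 2D, 5 were higher and 2 lower, with Pdha1 at 0.30 ± 0.05 and Pfkm at -0.85 ± 0.12. In the control, 6 were higher and 8 lower in 3D than in 2D, led by Eno3, the muscle enolase (-1.81 ± 0.06), and Slc16a1, a lactate transporter (-1.48 ± 0.05). Gapdhs and Pgam2 had 0 CPM in each 2D group and passed the count filter through their 3D libraries, so they could only be higher there. Pdk2 and Slc2a4 were also very low in the 2D control, at 0.03 and 0.37 CPM.

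Of 13 tested HIF and oxygen-sensing genes, only Elob, an elongin of the VHL complex, had a called interaction of the mean (-0.40 ± 0.07, adjusted p = 4.42e-04). For clone 2 alone Elob was called negative and Cited2 and Crebbp positive. In 3D, 1 was higher (Cited2, which competes with HIF-1 for coactivators, 0.23 ± 0.05) and 2 lower (Eloc, -0.41 ± 0.06, and Arnt, -0.22 ± 0.06) in the mean of both clones. Arnt was at 67.6 CPM in clone 1, 84.9 in clone 2 and 87.9 in the control in 3D, so clone 1 carried most of its difference. The same list had 2 higher and 4 lower in 2D. In the control 6 were higher and 6 lower in 3D than in 2D, with the coactivators Ep300 (1.95 ± 0.07) and Crebbp (1.66 ± 0.07) and the partner Arnt (1.79 ± 0.08) higher. Of 30 other tested HIF target genes, 2 had a called positive and 4 a called negative interaction, with P4ha1, a collagen prolyl hydroxylase, at -0.65 ± 0.08, Fam162a at -0.45 ± 0.11 and Errfi1, a feedback inhibitor of EGF receptor signalling, at 0.50 ± 0.06. In 3D, 2 were higher and 11 lower in the mean of both clones, with the secreted stanniocalcin Stc1 (-1.40 ± 0.11) and the lysyl hydroxylase Plod2 (-0.48 ± 0.05) among the lower ones. These means hide a split of the clones. In 3D Stc1 was at 42.3 CPM in clone 1, 1.30 in clone 2 and 19.7 in the control, so clone 1 lay above the control. Plod2 was at 45.5, 93.0 and 90.8 CPM in the same order, so only clone 1 lay below the control. In 2D, 6 of these 30 targets were higher and 8 lower, with Errfi1 (-0.74 ± 0.05) among the lower ones. Clone 1 carried most of that difference, with Errfi1 at 126 CPM in clone 1, 322 in clone 2 and 336 in the control in 2D. The median interaction was -0.05 over the glycolysis list, 0.01 over the oxygen-sensing list and -0.10 over the HIF target list, against -0.33 over the members.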

How the data were processed

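The deposited values are raw counts of reads per gene symbol, in 1 table for 2D and 1 for 3D. The authors' tools, per the submitters' processing notes, include STAR 2.7.9a, featureCounts, FastQC 0.11.9, Cell Ranger 3.0.0 and R 4.1.1, with genome build mm10. The role of each tool, the strand setting and the handling of reads with several matches are not given in the sources used here. Libraries were made with TruSeq Stranded mRNA, per the labels' protocols. All deposited counts are whole numbers and library totals differ, and replicate libraries differed by more than sampling noise (chi-square per degree of freedom 3.52 to 9.56).

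The tables were joined by symbol. In R 4.3.3 with limma 3.58.1 and edgeR 4.0.16, filterByExpr dropped genes with few counts, TMM scaled the libraries, and 1 quasi-likelihood model with 6 group means was fitted to all libraries (6 residual degrees of freedom, biological coefficient of variation 4.51%). The threshold was an adjusted p of 0.05, with Benjamini-Hochberg adjustment over 13763 genes. The fit was tested on simulated data first.

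Gene positions, exon lengths and overlaps came from GENCODE M21 (mm10), near-identical copies from an alignment of its transcripts, and promoter windows from RefSeq (GRCm38.p6). Exon length counts all annotated exons of a gene together, so levels per kilobase depend on that length. All members are named, and values of every library are given for those among the 6 with the largest called change in the mean, clone, format or interaction comparisons, and for Slc2a1, Hk2, Ldha, Pdk1, Car9, Vegfa and Hif1a. The members and the other lists were chosen with earlier results of these data known. The values of 1 gene of the other HIF target list are not reported here, though it is in that list's counts. DESeq2 1.42.0, other filters, scalings, chromosome centring, a replicate block and leaving out each library were tried as alternatives. Counting error sets the precision of low genes such as Slc16a3.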

Additional observations from a re-analysis of the deposited data

Results flagged for a closer look

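The clone difference from the control was tested for a change between 3D and 2D, and each value here is the log2 difference in 3D minus that in 2D with an adjusted p under 0.05 in edgeR's quasi-likelihood test. For the mean of both clones the change was called for 17 members, each negative. Among the enzymes up to pyruvate these were Gpi1 (-0.31), Pfkl (-0.49), Pfkp (-0.41), Aldoa (-0.60), Tpi1 (-0.58), Gapdh (-0.33), Pgk1 (-0.59), Pgam1 (-0.31), Eno1 (-0.58) and Pkm (-0.34). The other members were Ldha (-0.67), Pdk1 (-0.89), Bnip3 (-1.10), Ndrg1 (-0.42), Kdm3a (-0.34), Ak4 (-0.45) and Higd1a (-0.46).

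For clone 1 the change was called for 20 members, again each negative in the full fit, while several alternatives had 1 positive call. They were Gpi1 (-0.44), Pfkl (-0.66), Pfkp (-0.52), Aldoa (-0.66), Tpi1 (-0.55), Gapdh (-0.31), Pgk1 (-0.60), Pgam1 (-0.34), Eno1 (-0.55), Pkm (-0.25) and Ldha (-0.52) among the glycolytic enzymes and Ldha, and Pdk1 (-1.38), Car9 (-1.06), Bnip3 (-1.49), Bnip3l (-0.41), Ankrd37 (-1.15), Ndrg1 (-0.48), Kdm3a (-0.55), Ak4 (-0.45) and Mxi1 (-0.43) beyond them.

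For clone 2 it was called for 20 members. The negative values were Hk1 (-0.29), Pfkl (-0.33), Pfkp (-0.30), Aldoa (-0.54), Tpi1 (-0.62), Gapdh (-0.36), Pgk1 (-0.57), Pgam1 (-0.28), Eno1 (-0.61), Pkm (-0.43) and Ldha (-0.81) for enzymes of glycolysis and Ldha, and Pdk1 (-0.41), Bnip3 (-0.71), Egln3 (-0.37), Ndrg1 (-0.36), Ak4 (-0.44) and Higd1a (-0.57) for other members. The positive values were Hk2 (0.31), Aldoc (1.64) and Eno2 (2.11). Both clones share the control libraries, so these lists are not independent. A difference between the clones was tested within each format only.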

How the results depend on the processing

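The 14 counts of called members, both directions together, stayed within 1.5 times their main value in every alternative other than leaving out a library. When each library was left out in turn, clone 2 against the control in 3D gave 10 to 19 called members (19 in the full fit) and the mean of both clones against the control in 3D gave 9 to 20 (20 in the full fit), while the interaction of the mean gave 14 to 19 (17 in the full fit). Of single member values over all alternatives, 10967 kept their call and direction, or were uncalled in both fits and moved by less than 1 SE. Another 401 lost the threshold, 96 gained it, and 159 values uncalled in both fits moved by at least 1 SE. A further 9 changed sign with a call in the full fit, in the alternative or in both, so not each was called in the full fit. All 9 of these sign changes came with chromosomes centred. They were Pkm in clone 1 in 3D (0.0111), Pfkl in clone 2 in 3D (-0.00946), Pfkp in 3D over 2D in clone 2 (0.0408) and 6 values of clone 2 over clone 1. These were Slc2a1 (-0.19) and Gapdh (-0.16) in 2D, and Tpi1 (-1.61e-04), Gapdh (-0.24), Eno1 (-0.0931) and Egln1 (-0.13) in 3D. The cause was not tested. The looser filter moved the all-gene median of 3D over 2D in the control to 0.25 (0.10 in the full fit) and the stricter one to -0.01, with 34 and 31 members called. Replicate numbers did not pair the libraries (correlations of deviations -0.0644 to 0.047 across groups), and with the replicate block 17 interactions of the mean, 25 members in 2D and 20 in 3D were called, as without it. Depth limits Slc16a3, Eno2 and Adm most.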
